A study of Mus musculus with 20 samples.

Results

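Propafenone given alone was compared with control IgG by bulk RNA sequencing of B16F10 melanomas, 5 tumours in each group, which are 10 of the 20 tumours of the series. B16F10 is a pigmented mouse melanoma cell line, and all tumours grew in C57BL/6 mice labelled wild type, with injections into the peritoneal cavity from a tumour volume near 100 mm3 and excision on day 16. The labels give the treatment of one group as IgG and of the other as propafenone, while the design text speaks of IgG or anti-PD-1 with or without propafenone; whether mice on propafenone also received IgG, and the age and sex of the animals, are not given in the sources used here. The other 10 tumours received an antibody against PD-1, alone or with propafenone, and enter the model for its estimate of spread and, near the end, a second comparison of propafenone that shares no tumour with the first. Members were all genes of the deposited table expressed above a minimum count, 15875 of 32285, and each was tested. The title of the series names ferroptosis tied to mitochondria as its subject, so the groups of genes below follow the drug's known targets, ferroptosis, mitochondria and the cell types of a tumour.

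Propafenone is an antiarrhythmic drug that blocks voltage-gated sodium channels, slows conduction in heart muscle, and also blocks some potassium channels and, weakly, beta-adrenergic receptors. Ferroptosis is a form of cell death in which iron catalyses the peroxidation of polyunsaturated membrane lipids; the peroxidase Gpx4, fed by glutathione made from imported cystine, holds it back. B16F10 tumours grow fast and are known for few infiltrating T cells and a poor response to blockade of PD-1.

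The tissue carried the markers of its label. The 16 melanocyte genes of a marker list summed to 14560.5 to 19746 TPM in IgG tumours and 15750.1 to 21628 TPM in propafenone tumours, where TPM is a transcript level per length with every library scaled to the same total. The highest gene of a list is named by its mean TPM over the 10 tumours. Dct, a melanin enzyme, was the highest of them at 4781 and 5019 TPM on average in IgG and propafenone tumours. Of the 16 genes, 8 had a log2 fold change above 0 and 8 below, with a median log2 fold change of -0.011 (-0.12 to 0.070 in fits that each left out 1 tumour, a range given in brackets after each median below), beside 50.9% of all genes above 0, 49.1% below and a median of 0.0036 over all genes. Tyr, the rate-limiting enzyme of melanin synthesis, measured 874, 802, 800.4, 1065 and 885 CPM in IgG tumours 1 to 5 and 972, 815, 1108, 1005 and 970.3 CPM in propafenone tumours 1 to 5, where CPM is the share of a library's scaled count total and does not correct for length (log2 fold change 0.14). Mitf, the master transcription factor of melanocytes, measured 477, 260.5, 489, 602 and 506 CPM and 541, 618, 289, 626 and 362 CPM in the same order (log2 fold change 0.061). IgG tumour 2 and propafenone tumours 3 and 5 had the lowest Mitf, and the groups overlapped for both genes. Sox10, a neural crest factor of melanocytes, had a log2 fold change of -0.20 and Rab27a, which tethers melanosomes, of 0.22.

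Libraries summed to 58657347 to 61778825 counts after IgG and 61498792 to 63250090 after propafenone, and no library was a copy of another among the 10. On principal components of log2 CPM over the 10 tumours the groups overlapped: component 1 held 23.9% of the variance and ran from -50.5 to 45.01 in IgG and -18.4 to 32.8 in propafenone tumours, and component 2 held 20.8%. Genes of skeletal muscle such as Myh1, Tnnt3 and Acta1 led component 1. Blood, muscle and skin transcripts differed widely between single tumours, as given with each marker list below. In bulk tissue a lower level of a cell type's genes can come from fewer such cells or from less of each RNA per cell, and these cannot be told apart here.

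No gene passed the test. edgeR's quasi-likelihood test called 0 of 15875 genes at a Benjamini-Hochberg adjusted p under 0.05, and the smallest adjusted p was 0.913. At an unadjusted p under 0.05 stood 754 genes, or 4.75% of those tested, 291 of them with a higher mean after propafenone (1.83%) and 463 with a lower one (2.92%). About 794 genes would stand there if no gene differed. Groups of 5 that did not overlap at all were found for 84 genes with every propafenone tumour above every IgG tumour (0.529%) and for 112 genes with every one below (0.706%). Limma on voom values and on log2(TPM + 1) and log2(TPM + 0.1) called 0 genes too, and DESeq2 called 3, described with the skin genes below. By edgeR the adjusted p of every gene named here was at least 0.913, so the values below describe these tumours, and no single gene was shown to differ. The labels do not say whether each tumour came from its own animal. P-values therefore measure the spread between tumours within the groups of all 20 fitted tumours, and no more.

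Precision was enough to bound most genes. The 95% interval of the log2 fold change lay inside 1.5-fold in both directions for 9696 genes (61.1%) and inside 2-fold for 12127 (76.4%). Each interval here and below is for 1 gene and is not adjusted for the number of genes. Intervals of genes named below for a small p lie away from 0 in part by that choice. Among the 12313 genes that averaged at least 1 CPM the shares were 78.6% and 93.9%. The median fold change was near 0 and the middle 50% of genes lay between -0.11 and 0.13 on the log2 scale. Single tumours weighed on the count: without IgG tumour 5 the genes at an unadjusted p under 0.05 numbered 315, without IgG tumour 2 they numbered 1377, and without propafenone tumours 3, 4 and 5 in turn they numbered 492, 1367 and 455. The gene lists below leaned on single tumours as well: the median log2 fold change of 23 of the 48 lists turned its sign in at least 1 fit without 1 tumour, and 15 of the 48 kept it in all 25 alternatives. Those 15 were the lists of complex I, mitochondrial DNA genes, mitochondrial dynamics, the TCA cycle, ribosomal proteins, NRF2 targets, drug efflux, cell cycle, interferon-stimulated genes, checkpoint genes, cytotoxic genes, neutrophils, extracellular matrix, fibroblasts and endothelium. The muscle and macrophage lists changed sign only in the fit with their own score as covariate, at -0.027 and -0.024. Such a fit takes out the list's own score, so its median there had to lie near 0.

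**Figure D1:**
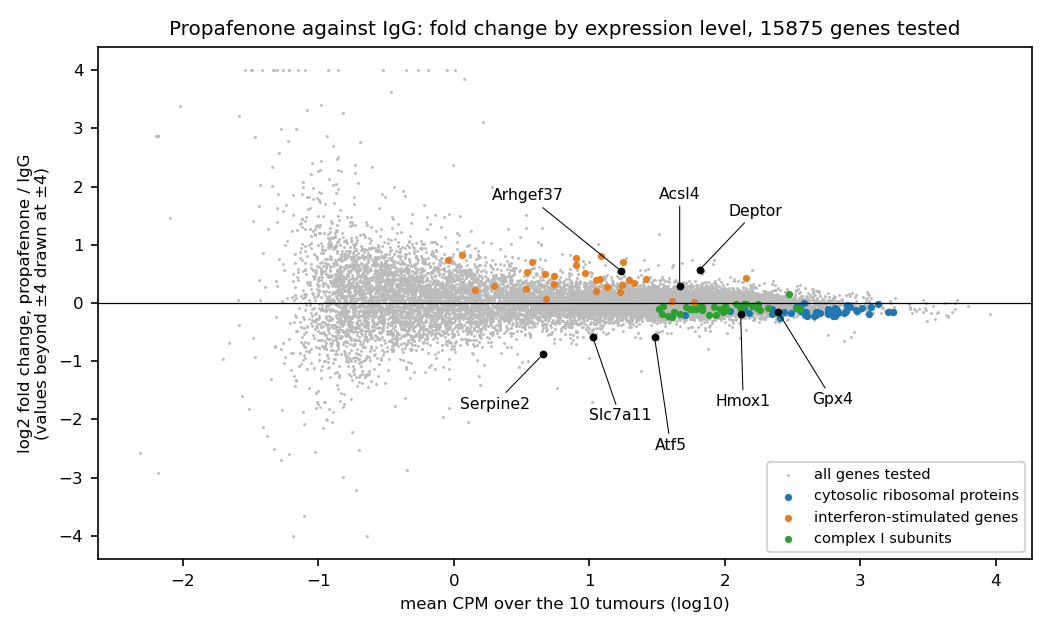
Log2 fold change of propafenone over IgG (vertical axis) against the mean CPM of the 10 tumours (horizontal axis, log10) for the 15875 genes tested, 1 point a gene. Cytosolic ribosomal proteins and complex I subunits lie just below 0 at high expression, interferon-stimulated genes lie above 0, and none of the genes drawn passed the test.

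Among the drug's targets, 7 of 14 sodium channel genes were tested, 5 higher and 2 lower, with a median log2 fold change of 0.072 (0.0017 to 0.36). Scn8a, a neuronal channel, was the highest at 44.7 TPM after IgG and 42.8 TPM after propafenone, and its CPM of 104 to 114 in IgG overlapped the 99.6 to 123 in propafenone tumours. Scn2a measured 0.998, 1.06, 1.58, 0.904 and 1.01 CPM after IgG and 1.59, 1.70, 1.77, 1.43 and 1.48 CPM after propafenone, with IgG tumour 3 inside the propafenone range and the other 4 IgG tumours below it (log2 fold change 0.52, 95% interval 0.057 to 0.98). Scn1a had a log2 fold change of 0.48 (95% interval -0.088 to 1.04).

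Potassium and calcium channels showed no common direction, with 10 of 18 tested genes higher, 8 lower and a median log2 fold change of 0.10 that changed sign in fits without single tumours (-0.12 to 0.097). Kcnh2 encodes the hERG channel that propafenone is known to block; its level was 1.62, 0.516, 0.697, 1.42 and 1.16 CPM in IgG tumours and 1.97, 1.02, 1.15, 1.13 and 0.619 CPM in propafenone tumours, with a log2 fold change of 0.13 (95% interval -0.61 to 0.86). Kcnn4, a calcium-activated potassium channel of non-excitable cells and the highest of the list at 37.9 TPM after IgG, measured 50.97, 37.4, 32.3, 26.3 and 39.6 CPM against 33.3, 31.5, 26.7, 32.6 and 24.8 CPM after propafenone (log2 fold change -0.33, 95% interval -0.63 to -0.021). IgG tumours 3 and 4 lay inside the propafenone range and the other 3 IgG tumours above it. Kcnk3, a leak channel, stayed under 1 CPM in every tumour and reached 0.884 CPM in IgG tumour 5 alone.

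Beta-adrenergic signalling held 15 tested genes with a median log2 fold change of -0.022 (-0.037 to 0.0058), 5 higher and 10 lower. Gnas, the stimulatory G protein and the most abundant of the list, measured 1005, 925, 1023, 1039.9 and 990.4 CPM after IgG and 957, 908, 889.6, 925 and 866 CPM after propafenone, with IgG tumour 2 inside the propafenone range (log2 fold change -0.13, 95% interval -0.25 to -0.019). Pde4d, which degrades cyclic AMP, had a log2 fold change of 0.29 (95% interval 0.052 to 0.53). In the list of drug efflux and metabolism 8 of 10 tested genes were lower, with a median log2 fold change of -0.050 (-0.10 to -0.011). The efflux pump Abcc1 had a log2 fold change of -0.088 (95% interval -0.26 to 0.087) and Por, the electron donor of cytochromes P450 and the list's highest gene, averaged 81.3 TPM after IgG and 80.7 TPM after propafenone.

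Genes that hold back or drive ferroptosis differed by less than the test could call. Hmox1 (GRCm38 chromosome 8, 75093621 to 75100589), which degrades haem and releases its iron, measured 96.9, 160.4, 159, 113 and 170.3 CPM in IgG tumours 1 to 5. In propafenone tumours 1 to 5 it measured 108, 93.4, 145, 89.9 and 175 CPM. Both groups ran from about the same lowest to the same highest tumour, and the log2 fold change was -0.20 ± 0.30 SE with a 95% interval of -0.83 to 0.44. Of the 15 tested genes of haem metabolism, Hmox1 included, 6 were higher and 9 lower, with a median log2 fold change of -0.014 (-0.055 to 0.026). The haem transporter Slc48a1 had the smallest p among them, with a log2 fold change of -0.27 (95% interval -0.50 to -0.045), with IgG tumour 5 highest at 255 CPM, and Alad, a haem synthesis enzyme, had a log2 fold change of -0.16.

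Gpx4 (chromosome 10, 80047166 to 80056439) measured 242, 255, 269.6, 258 and 292 CPM after IgG and 203, 214, 277, 226 and 255 CPM after propafenone. Propafenone tumours 1, 2 and 4 lay below every IgG tumour and propafenone tumours 3 and 5 among them (log2 fold change -0.16, 95% interval -0.40 to 0.072). Slc7a11 (chromosome 3, 49892526 to 50443614), the cystine importer that feeds glutathione synthesis, measured 11.6, 14.9, 9.08, 14.5 and 13.7 CPM after IgG. After propafenone it measured 13.4, 7.45, 7.13, 9.24 and 5.23 CPM, so that 3 propafenone tumours lay below every IgG tumour and propafenone tumours 1 and 4 lay within the IgG range (log2 fold change -0.59 ± 0.33 SE, 95% interval -1.28 to 0.11). Fth1, the ferritin heavy chain that stores iron, had a log2 fold change of -0.18 (95% interval -0.38 to 0.020) and Ftl1, its light chain and the most abundant gene of the list at 5397 TPM after IgG, of -0.18. Over the 26 defence genes 12 were higher and 14 lower, with a median log2 fold change of -0.032 (-0.060 to 0.010). Of them 1 reached an unadjusted p under 0.05, beside 2.92% of all genes lower at that p: Nqo1, a quinone reductase (log2 fold change -0.33). Gch1, which makes the antioxidant cofactor tetrahydrobiopterin, had a log2 fold change of -0.33.

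On the driving side, Acsl4 (chromosome X, 142317993 to 142390535) loads polyunsaturated fatty acids into membrane lipids. Its CPM was 44.6, 42.2, 48.9, 40.7 and 33.2 in IgG tumours and 52.5, 52.8, 58.5, 38.5 and 53.1 in propafenone tumours, with 4 propafenone tumours above every IgG tumour and propafenone tumour 4 below 4 of them (log2 fold change 0.28, 95% interval -0.021 to 0.59). Tfrc, the transferrin receptor that brings in iron, measured 626, 604, 621, 702 and 533 CPM and 668, 659, 758, 634 and 634 CPM, with overlap (log2 fold change 0.12, 95% interval -0.13 to 0.37). Pebp1, a partner of lipoxygenases and the highest gene of the driver list, had a log2 fold change of -0.17 (95% interval -0.31 to -0.034). Of the 26 driver genes tested 7 were higher and 19 lower, with a median log2 fold change of -0.067 (-0.095 to -0.012). Iron handling had 10 of 22 genes higher and 12 lower around a median log2 fold change of -0.0074 (-0.028 to 0.027), and its smallest p-values belonged to the iron-sulfur scaffold Iscu (log2 fold change -0.16) and the iron chaperone Pcbp2 (log2 fold change -0.17).

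**Figure D2:**
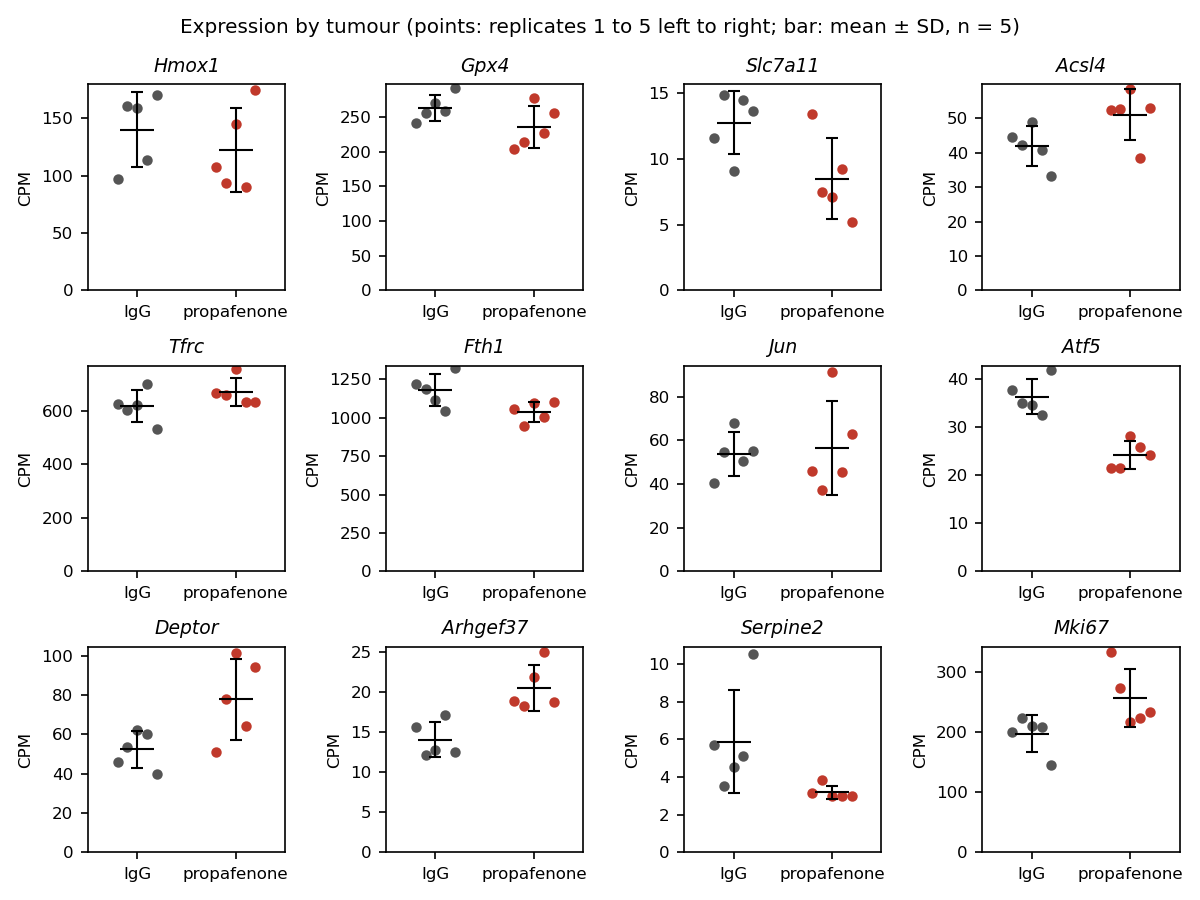
CPM of 12 genes in each tumour (vertical axes from 0), IgG in grey and propafenone in red, with replicates 1 to 5 from left to right and bars for mean ± SD (n = 5). Atf5 and Arhgef37 are the panels in which no propafenone tumour lies within the IgG range, and Hmox1, Gpx4, Tfrc and Jun overlap.

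Targets of NRF2, the factor that turns on antioxidant and glutathione genes, leaned lower. Of the 24 genes 19 were lower (79.2%, against 49.1% of all genes), with a median log2 fold change of -0.13 (-0.15 to -0.086). At an unadjusted p under 0.05 stood 4, all lower, beside 2.92% of all genes lower at that p. The list score, which averages the members' log2 CPM after each gene is centred over the 10 tumours, was 0.051, 0.14, 0.044, -0.0090 and 0.11 in IgG tumours 1 to 5 and -0.019, -0.065, -0.061, -0.16 and -0.037 in propafenone tumours, and the groups did not overlap, with IgG tumour 4 and propafenone tumour 1 nearly meeting. Of the 48 list scores looked at, only those of NRF2 targets and ribosomal proteins did not overlap between groups. Tkt, of the pentose phosphate pathway, had a log2 fold change of -0.18, Txn1, thioredoxin, of -0.15, and Gstm1 and Gstp1, glutathione transferases, of -0.24 and -0.17. Hmox1, Nqo1 and Slc7a11 belong to this list as well, and Gstm1 was singled out after its values were seen. On log2(TPM + 1), where the median of all genes was 0.053, 16 of the 24 were lower, with a median of -0.064, and without IgG tumour 5 the median was -0.086 with 0 genes at an unadjusted p under 0.05.

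The JNK cascade and AP-1, a stress kinase route that ends in the factors Jun and Fos, had 15 of 27 genes higher, 12 lower and a median log2 fold change of 0.020 (-0.039 to 0.077), with 0 at an unadjusted p under 0.05. Jun measured 40.3, 54.8, 68.1, 50.8 and 55.3 CPM after IgG and 46.01, 37.3, 91.4, 45.3 and 62.9 CPM after propafenone; propafenone tumour 3 was the highest of the 10 and propafenone tumour 2 the lowest (log2 fold change 0.070, 95% interval -0.54 to 0.68). Without propafenone tumour 3 the log2 fold change of Jun was -0.16. Atf3, a partner of Jun, ran over 14.9 to 39.9 CPM after IgG and 12.3 to 45.1 CPM after propafenone, again highest in propafenone tumour 3 and IgG tumour 2 (log2 fold change 0.041). Mapk8, the kinase JNK1, had a log2 fold change of 0.23 (95% interval -0.22 to 0.67), Map3k1 of 0.31 and Map3k10 of -0.17. Mapk8ip1, a scaffold of the cascade, was its highest gene at 153 TPM after IgG. Map3k5 encodes the redox-sensitive kinase ASK1. It was singled out after its values were seen, as the list's one gene without overlap, at 23.7, 22.8, 22.7, 24.1 and 21.4 CPM against 25.2, 27.1, 24.6, 28.6 and 25.6 CPM (log2 fold change 0.19, 95% interval -0.098 to 0.48). Over all genes 0.529% were higher without overlap.

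The stress factor gene Atf5 was lower without overlap, as were 112 of all 15875 genes (0.706%). Atf5 (chromosome 7, 44812256 to 44816658) is a transcription factor translated under stress that acts in the mitochondrial unfolded protein response. It measured 37.8, 35.1, 34.7, 32.5 and 41.8 CPM in IgG tumours 1 to 5 and 21.5, 21.5, 28.3, 25.9 and 24.2 CPM in propafenone tumours 1 to 5. Every propafenone tumour was below every IgG tumour, and the log2 fold change was -0.58 ± 0.16 SE (95% interval -0.92 to -0.25), and ran over -0.64 to -0.52 in the 10 fits without 1 tumour. Of the 26 genes regulated by ATF4 or the unfolded protein response 12 were higher and 14 lower, with a median log2 fold change of -0.037 (-0.093 to 0.026). At an unadjusted p under 0.05 stood 6 of them (23.1%, against 4.75% of all genes) and all 6 were lower: Atf5 and 5 enzymes of serine, one-carbon and asparagine synthesis.

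Those 5 enzymes are known targets of ATF4 and, apart from Psat1, were singled out after their values were seen. Psat1 measured 287, 254, 243, 257 and 293 CPM after IgG and 261, 244, 186, 241 and 174 CPM after propafenone (log2 fold change -0.27, 95% interval -0.47 to -0.072). Phgdh, the first enzyme of serine synthesis, measured 343, 313, 279.6, 306 and 367 CPM and 309, 297, 209, 293 and 214 CPM (log2 fold change -0.28). Asns, asparagine synthetase, measured 266, 283, 226, 265 and 279 CPM and 254, 209.6, 185, 222 and 182 CPM (log2 fold change -0.32). In each of the 3 genes propafenone tumours 3 and 5 lay below every IgG tumour and propafenone tumour 1 lay within the IgG range. Shmt2 and Mthfd2, of mitochondrial one-carbon metabolism, had a log2 fold change of -0.27 and -0.31 with the same 2 tumours lowest. Without propafenone tumour 3, propafenone tumour 5 or IgG tumour 5 in turn, the list held 2 genes at an unadjusted p under 0.05. It held 1 without the tumours above 1000 CPM of the globin gene Hbb-bs. Calr, a chaperone of the endoplasmic reticulum, was the list's highest gene at 1054 and 1142 TPM. Atf4 itself, Ddit3 and Trib3, named for their place in the pathway, had 95% intervals of the log2 fold change that held 0: -0.54 to 0.20, -0.84 to 0.99 and -0.98 to 0.41.

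Genes of mitochondrial quality control and stress, Atf5 among them, had no common direction: 11 of 22 were higher and 11 lower, with a median log2 fold change of -0.0059 (-0.049 to 0.016). Ppargc1a, the coactivator that drives mitochondrial biogenesis and is regulated by Mitf in melanoma, measured 76.96, 125, 92.2, 211 and 131 CPM in IgG and 187, 153, 195, 209.8 and 203 CPM in propafenone tumours. IgG tumour 4 was the highest of the 10 and the other 4 IgG tumours lay below every propafenone tumour (log2 fold change 0.57 ± 0.22 SE, 95% interval 0.11 to 1.04). Yme1l1, an inner membrane protease singled out after its values were seen, had a log2 fold change of 0.21, and the chaperone Hspd1 was the highest of the list at 1421 and 1508 TPM. Of 21 genes of mitochondrial fission, fusion and mitophagy 15 were lower, with a median log2 fold change of -0.074 (-0.10 to -0.042). Mfn1, a fusion GTPase, had a log2 fold change of 0.10 and Fis1, a fission factor, of -0.14, and Vdac1, the outer membrane channel, was highest at 1172 TPM after IgG. Cytosolic heat shock chaperones had 11 of 14 genes lower, with a median log2 fold change of -0.081 (-0.10 to 0.0063) and 0.0063 without IgG tumour 5. Hsp90ab1 had a log2 fold change of -0.077 and Hspa4 at 0.12.

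Respiratory chain transcripts were lower by small amounts. All 13 protein-coding genes of mitochondrial DNA had a lower mean after propafenone, with log2 fold changes from -0.31 to -0.096 and a median log2 fold change of -0.20 (-0.27 to -0.13). Of them 1 reached an unadjusted p under 0.05, beside 2.92% of all genes lower at that p. Mitochondrial DNA is transcribed as long common precursors, so these are not 13 separate observations. mt-Nd3, a complex I subunit, measured 199, 202, 186, 223 and 240.2 CPM after IgG and 176, 168, 174, 174 and 190.5 CPM after propafenone, with propafenone tumour 5 above 1 IgG tumour (log2 fold change -0.25, 95% interval -0.48 to -0.021). mt-Nd4 had a log2 fold change of -0.27 and mt-Atp6, the most abundant at 14100.4 TPM after IgG, of -0.22. The list score was highest in IgG tumours 4 and 5, and it overlapped between groups. Leaving out the 4 tumours above 1000 CPM of the globin gene Hbb-bs (IgG 4 and 5, propafenone 4 and 5), together with 1 anti-PD-1 tumour above it, moved the median to -0.040 with 8 of 13 lower.

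Of 36 nuclear genes of complex I, the NADH dehydrogenase, 35 were lower, beside 49.1% of all genes, and the median log2 fold change was -0.095 (-0.12 to -0.036). The exception was Ndufs1, its largest iron-sulfur subunit, which was higher without overlap: 273, 282, 284, 289 and 283 CPM after IgG and 323, 317, 318, 296 and 314 CPM after propafenone (log2 fold change 0.15, 95% interval 0.043 to 0.26). Ndufs6 measured 41.5, 42.6, 41.4, 42.3 and 53.6 CPM against 39.7, 36.2, 34.3, 38.2 and 38.98 CPM (log2 fold change -0.24) and Ndufs5, singled out after its values were seen, had a log2 fold change of -0.18; both were lower without overlap, as were 0.706% of all genes, while 0.529% were higher without overlap. Ndufb9, the highest per length, averaged 515 TPM after IgG and 516 TPM after propafenone. Complexes II to V had 30 of 37 genes lower, with a median log2 fold change of -0.076 (-0.10 to -0.044), and 2 of them, the ATP synthase subunits Atp5g2 (log2 fold change -0.24) and Atp5d (log2 fold change -0.18, singled out after its values were seen), were lower without overlap, beside 0.706% of all genes. On log2(TPM + 0.1) that median was 0.0050, where the median of all genes was 0.071. Atp5e had a log2 fold change of -0.22 and Atp5b was highest at 1917 TPM after IgG. On log2(TPM + 1), where the median of all genes was 0.053, the complex I median was -0.019 with 24 of 36 lower. With the muscle list score as covariate the complex I median was -0.021 with 23 lower, and without IgG tumour 5 it was -0.036.

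**Figure D3:**
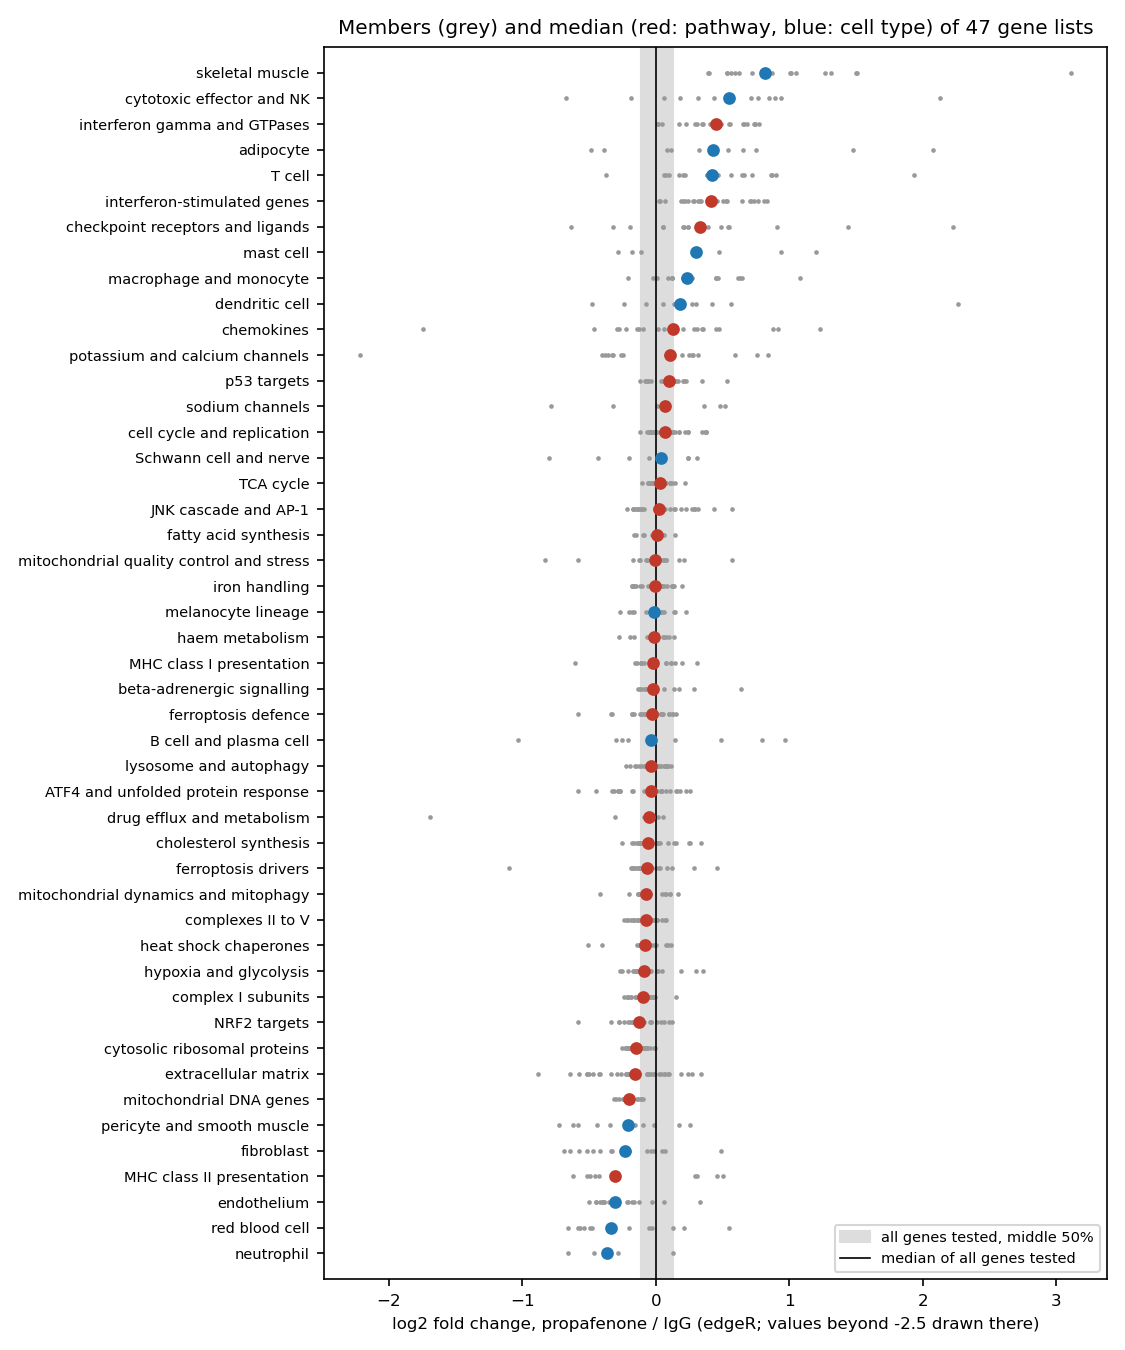
Log2 fold change of propafenone over IgG (horizontal axis) for the members (grey points) and the median (red for pathway lists, blue for cell type lists) of 47 gene lists, 1 list a row, with the middle 50% of all genes as a grey band; the keratinocyte list is not drawn. Muscle, cytotoxic and interferon lists have medians above the band with wide spreads, and ribosomal proteins, mitochondrial DNA genes and complex I have narrow spreads just below 0.

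Cytosolic ribosomal proteins, the structural proteins of the ribosome, had lower means as a group, by small amounts. Each of 47 genes had a lower mean after propafenone, with log2 fold changes from -0.25 (Rplp2) to -0.0054 (Rps24) and a median log2 fold change of -0.15 (-0.17 to -0.096). At an unadjusted p under 0.05 stood 19 of 47 (40.4%, against 2.92% of all genes lower at that p), and 15 of 47 were lower without overlap (31.9%, against 0.706%). Ribosomal protein messages share a short pyrimidine run at the start of the transcript, the terminal oligopyrimidine motif, through which mTOR signalling is known to set their translation. The first bases around the RefSeq transcript start of 6 of the 19 are shown for that run, 25 bases each from GRCm38.p6, 5′ to 3′ on the gene's strand, with the run of 7 or more C or T in capitals:
Rpl35: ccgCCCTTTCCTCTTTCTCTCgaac
Rplp2: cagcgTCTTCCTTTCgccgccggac
Rpl14: ggCCCTCTCTCTTCTCgctgagcgc
Rpl18: ctcgcaggccgCTCTTTCCCCgccc
Rpl28: tctcgtgTCTCTCTTTCCgtctccg
Rpl15: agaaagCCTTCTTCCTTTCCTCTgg

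They lie at chr2:39005117-39005141 (Rpl35, minus strand), chr7:141447641-141447665 (Rplp2, plus), chr9:120571507-120571531 (Rpl14, plus), chr7:45718061-45718085 (Rpl18, plus), chr7:4792955-4792979 (Rpl28, plus) and chr14:18270972-18270996 (Rpl15, minus). A run of at least 7 C or T that touches the 5 bases on either side of the start was found on the gene's strand in 15 of the 36 ribosomal protein genes with a RefSeq start in the table (41.7%), and in 16.4% of all 27025 genes there. Such a match describes the letters only, and RNA levels do not show translation.

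Rplp1, of the ribosomal stalk, had the smallest p of the list. It measured 668, 659.5, 703, 632 and 754 CPM after IgG and 561, 598, 600.4, 578 and 600.4 CPM after propafenone, without overlap (log2 fold change -0.22 ± 0.079 SE, 95% interval -0.38 to -0.053). Rplp2, its partner in the stalk, measured 257, 275, 277, 265 and 327 CPM and 231, 237, 230.5, 237 and 241 CPM, also without overlap (log2 fold change -0.25). Rpl14 measured 397, 413, 435, 412 and 507 CPM and 373, 373, 374, 357 and 386 CPM (log2 fold change -0.22), and IgG tumour 5 was the highest of the 10 tumours in these 3 genes. Rpl35 measured 261, 303, 313, 275 and 302 CPM and 263, 265, 267, 229 and 275 CPM and overlapped through IgG tumours 1 and 4 (log2 fold change -0.16). Rpl28, Rpl18 and Rpl15 had a log2 fold change of -0.20, -0.19 and -0.12, and Rps2, the most abundant per length at 3471 TPM after IgG, of -0.15. Rplp2, Rpl14, Rpl28, Rpl18 and Rpl15 were chosen for their sequence among the 19. Ribosomal protein genes have many near-identical pseudogenes, and how reads shared with them were counted is not given in the sources used here, so their levels are uncertain.

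The list score was -0.025, 0.031, 0.12, 0.0031 and 0.22 in IgG tumours 1 to 5 and -0.083, -0.048, -0.070, -0.11 and -0.035 in propafenone tumours 1 to 5, and the groups did not overlap, though IgG tumour 1 and propafenone tumour 5 nearly met. IgG tumour 5 also had the lowest scaling factor of the 10 (0.926). Without it the median was -0.096, with 46 of 47 lower and 2 at an unadjusted p under 0.05. On log2(TPM + 1), where the median of all genes was 0.053, the list median was -0.073 with 40 of 47 lower. With the muscle list score as covariate the list median was -0.079 with 46 lower.

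Transcript length and abundance moved with the difference as well. Genes were split into 5 equal classes of total exon length. The shortest class had a median log2 fold change of -0.055 with 58.9% of its genes lower, and the longest class a median of 0.054 and 33.9% lower. The 689 genes that were both in the shortest class and in the highest of 5 equal classes of TPM, ribosomal proteins of the list left out, had a median of -0.095, with 84.5% lower and 3.19% lower without overlap. Ribosomal protein genes have a median exon length of 2007 bases against 4086 over all genes. Median exon length was 1643.5 bases for complex I, 1831 for complexes II to V, 784 for mitochondrial DNA genes and 3061.5 for NRF2 targets. The median log2 fold change of complex I was -0.095 as well, the value of the 689 short and abundant genes. Complex I genes were not left out of that class. Across the 15871 genes with a length, Spearman's rho of log2 fold change with length was 0.17 and with TPM -0.16; genes are not independent replicates. The part of length or abundance in the ribosomal, mitochondrial and NRF2 lists was not tested beyond these values.

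Named next are 10 genes higher and 10 lower in order of p, all of which averaged at least 1 CPM and kept their direction in all 10 fits without 1 tumour. Arhgef37, a guanine nucleotide exchange factor, measured 15.7, 12.2, 12.7, 17.2 and 12.6 CPM after IgG and 18.8, 18.2, 21.9, 24.99 and 18.7 CPM after propafenone, without overlap (log2 fold change 0.55 ± 0.14 SE, 95% interval 0.26 to 0.83). Deptor (chromosome 15, 55112317 to 55259271), an inhibitor of mTOR, measured 46.2, 53.7, 62.1, 60.1 and 40.1 CPM and 51.3, 78.04, 102, 64.2 and 94.1 CPM, with propafenone tumour 1 inside the IgG range (log2 fold change 0.57, 95% interval 0.24 to 0.90). Intu, needed for primary cilia, measured 31.4, 39.97, 39.9, 36.8 and 37.7 CPM and 41.04, 46.8, 62.99, 40.1 and 53.5 CPM, without overlap (log2 fold change 0.40). Ulbp1, a stress-induced ligand of the killer receptor NKG2D, measured 5.68, 5.60, 5.63, 6.12 and 5.56 CPM and 9.33, 8.15, 9.96, 6.83 and 8.57 CPM, with every propafenone tumour above every IgG tumour (log2 fold change 0.58, 95% interval 0.19 to 0.98). The other 6 higher genes were Tnfrsf19 (log2 fold change 0.44), the endosomal protein gene Wdr91 (log2 fold change 0.24), the mismatch repair gene Pms1 (log2 fold change 0.28), Cdk15 (log2 fold change 0.35), the glycosyltransferase B3galt5 (log2 fold change 0.66) and Nabp1 (log2 fold change 0.32), which binds single-stranded DNA. Wdr91 and Nabp1 did not overlap between groups. The largest folds among the 68 higher genes without overlap that averaged 1 CPM belonged to Ulbp1, Nfe2l3 (log2 fold change 0.57), AI480526 (log2 fold change 0.55), Arhgef37 and Nlgn1 (log2 fold change 0.49).

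On the lower side Atf5 came first. Serpine2 (chromosome 1, 79794197 to 79861180), a secreted protease inhibitor, measured 5.69, 3.55, 4.53, 5.13 and 10.6 CPM after IgG and 3.15, 3.83, 2.97, 2.99 and 3.01 CPM after propafenone. IgG tumour 5 stood alone at the top and IgG tumour 2 lay below the highest propafenone tumour (log2 fold change -0.88 ± 0.25 SE, and -0.56 without IgG tumour 5). Cfl1, cofilin, which severs actin filaments, measured 979, 1026, 1021, 1049.8 and 1052 CPM and 924, 938, 876, 920.3 and 914 CPM, a narrow difference without overlap (log2 fold change -0.17, 95% interval -0.27 to -0.062). Serpinf1, an inhibitor of vessel growth, measured 37.4, 36.1, 32.9, 35.01 and 42.5 CPM and 31.1, 24.7, 24.1, 22.6 and 27.2 CPM, also without overlap (log2 fold change -0.50). Tead2, a DNA-binding partner of YAP, had a log2 fold change of -0.30, Elovl1, which elongates very long fatty acids, of -0.20, and Crip2, Fam222b, Syngr2 and Limd2 of -0.29, -0.25, -0.23 and -0.35. The largest folds among the 100 lower genes without overlap that averaged 1 CPM belonged to Trp53i11 (log2 fold change -0.94), Atf5, C1qtnf5 (log2 fold change -0.53), Nnmt (log2 fold change -0.52), which methylates nicotinamide, and Serpinf1. Trp53i11 measured 9.81, 10.5, 10.6, 12.2 and 21.98 CPM and 6.60, 6.78, 5.39, 9.65 and 5.33 CPM, so IgG tumour 5 was again far above the rest.

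Medians of the metabolic lists ran from -0.088 for hypoxia and glycolysis to 0.032 for the TCA cycle, beside 0.0036 over all genes. Cholesterol synthesis had 10 of 22 genes higher and 12 lower, with a median log2 fold change of -0.061 (-0.10 to -0.020). By log2 fold change the enzyme Mvd stood at -0.25, the sterol sensor partner Insig1 at 0.25, and Fdps was highest at 690.0 TPM after IgG. Fatty acid synthesis had 9 of 15 higher, with a median log2 fold change of 0.0058 (-0.060 to 0.042). By log2 fold change Fads1 stood at -0.16, Acacb at 0.14, and the desaturase Scd2 was highest at 1055 TPM. Lysosome and autophagy genes were lower in 18 of 29, with a median log2 fold change of -0.035 (-0.057 to 0.011). The sterol carrier Npc2 had a log2 fold change of -0.15, and the melanosomal gene Gpnmb was highest at 2327 TPM. Tfe3, a driver of lysosome genes, was lower without overlap at -0.22, beside 0.706% of all genes lower without overlap. Hypoxia and glycolysis had 22 of 28 lower, with a median log2 fold change of -0.088 (-0.15 to -0.031). The glycolytic enzymes Eno1 and Aldoa had log2 fold changes of -0.15 and -0.16, and the regulator Pfkfb3 one of 0.36. With the muscle score as covariate the hypoxia and glycolysis median turned to 0.060, with 17 of 28 higher. TCA cycle genes were higher in 13 of 22, with a median log2 fold change of 0.032 (0.011 to 0.062). By log2 fold change Idh3a stood at 0.22, Ogdh at 0.15, and Mdh2 was highest at 897 TPM.

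Proliferation genes leaned higher by little. Of 35 genes of the cell cycle and replication 25 were higher (71.4%, against 50.9%), with a median log2 fold change of 0.066 (0.032 to 0.10). At an unadjusted p under 0.05 stood 3 of the 35, all higher and all mitotic, beside 1.83% of all genes higher at that p. Cenpf, a kinetochore protein, measured 61.3, 70.8, 66.1, 70.6 and 57.5 CPM after IgG and 85.9, 85.99, 79.3, 77.9 and 91.6 CPM after propafenone (log2 fold change 0.37, 95% interval 0.12 to 0.62). It was higher without overlap, as were 0.529% of all genes. Kif23, needed for cytokinesis, had a log2 fold change of 0.38 and Kif20a, singled out after its values were seen, of 0.24. Mki67, the common marker of cycling cells, measured 199, 223, 210.0, 208 and 145 CPM and 332, 273, 217, 223 and 233 CPM. IgG tumour 5 was far below the other IgG tumours and propafenone tumours 1 and 2 were the highest (log2 fold change 0.38, 95% interval -0.072 to 0.82). Pcna was the highest of the list at 527 and 554 TPM. Targets of p53 were higher in 14 of 20, with a median log2 fold change of 0.10 (-0.0091 to 0.18), and -0.0091 without propafenone tumour 3. Mdm2 and Rrm2b had a log2 fold change of 0.22 and 0.16, and Cdkn1a, the highest at 477 TPM after IgG, ran from 303 to 616 CPM in IgG and 173 to 940.2 CPM in propafenone tumours.

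Interferon-stimulated genes, which sense and restrict viral nucleic acids, had higher means with a spread that covered both groups. All 28 measured genes had a log2 fold change above 0, with a median of 0.41, yet 0 reached an unadjusted p under 0.05 and 0 separated the groups. Many interferon-stimulated promoters carry the interferon-stimulated response element, a binding site of transcription factors that interferons activate. Promoter stretches of 4 of the genes are shown for that element, from GRCm38.p6 and 5′ to 3′ on the gene's strand, with capitals for GAAA, any 2 bases, GAAA or for its reverse complement, TTTC, any 2 bases, TTTC:
Ifit3: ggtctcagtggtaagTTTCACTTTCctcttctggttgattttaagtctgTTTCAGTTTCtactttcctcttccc
Oas3: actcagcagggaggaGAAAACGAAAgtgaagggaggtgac
Trim30a: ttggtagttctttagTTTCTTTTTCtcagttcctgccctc
Ifih1: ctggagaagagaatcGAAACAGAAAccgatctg

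They lie at chr19:34583358-34583431 (Ifit3, plus strand), chr5:120777710-120777749 (Oas3, minus), chr7:104465205-104465244 (Trim30a, minus) and chr2:62646206-62646238 (Ifih1, minus). This element on either strand was found between 250 bases before and 50 after the RefSeq start in 12 of the 21 listed genes with a promoter in the table (57.1%) and in 3.99% of all genes there. A match is a description of the letters and does not show binding in these tumours.

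Ifit3, which blocks translation of viral RNA, measured 5.46, 15.2, 6.85, 12.2 and 4.31 CPM in IgG tumours and 4.58, 19.1, 19.5, 21.9 and 12.3 CPM in propafenone tumours (log2 fold change 0.81 ± 0.45 SE, 95% interval -0.12 to 1.75). Xaf1 measured 4.17, 9.91, 3.72, 7.21 and 4.61 CPM and 2.27, 11.02, 14.6, 12.3 and 10.2 CPM (log2 fold change 0.77, 95% interval -0.16 to 1.70). In both, IgG tumours 2 and 4 stood high, IgG tumours 1, 3 and 5 low, and propafenone tumour 1 was below 4 or all 5 of the IgG tumours while the other 4 were higher. Ifit3 has a close copy, Ifit3b, and the GTPase genes below are a family of close copies, so reads may be split between them and these levels are uncertain. Oas3 had a log2 fold change of 0.83, Trim30a of 0.50 and the RNA sensor Ifih1 of 0.40, and these 3 were singled out for their sequence. Bst2, the highest of the list per length, averaged 151 TPM after IgG and 160.2 TPM after propafenone. The list score was -0.61, 0.58, -0.63, 0.36 and -0.65 in IgG tumours and -1.06, 0.59, 0.47, 0.90 and 0.062 in propafenone tumours. Without single tumours the median ran over 0.23 to 0.63, and with the macrophage list score as covariate it was 0.059 with 19 of 28 higher.

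Genes of the interferon gamma response and its GTPases had 21 of 21 tested members higher, with a median log2 fold change of 0.45, 0 at an unadjusted p under 0.05, and a median that ran over 0.076 to 0.81 without single tumours, lowest without propafenone tumour 4. With the macrophage score as covariate that median was -0.24. Gbp7, a GTPase, ran from 6.04 to 35.9 CPM in IgG and 6.33 to 64.1 CPM in propafenone tumours (log2 fold change 0.74, 95% interval -0.66 to 2.13), and Irgm1 was the highest at 93.7 TPM after IgG. Cd274, the PD-L1 ligand that tumour cells raise under interferon gamma, measured 5.41, 11.97, 6.67, 7.91 and 3.30 CPM and 4.85, 10.5, 9.03, 11.7 and 8.95 CPM (log2 fold change 0.35, 95% interval -0.31 to 1.01). MHC class I had 7 of 18 higher, with a median log2 fold change of -0.021 (-0.29 to 0.28). The immunoproteasome subunit Psmb8 had a log2 fold change of -0.61, and Nlrc5, the class I transactivator, ranged over 5.71 to 29.4 CPM in IgG and 9.51 to 37.4 CPM in propafenone tumours. B2m was the highest at 1105 TPM. The direction of the class I genes rested on single tumours: without IgG tumour 2 all 18 were higher, and without propafenone tumour 4 all 18 were lower. With the macrophage score as covariate 0 of 18 were higher, with a median of -0.43. MHC class II had 7 of 11 lower, with a median log2 fold change of -0.31, which ran over -0.87 to 0.37 without single tumours and turned higher without IgG tumour 2. H2-DMb1 and H2-DMb2, which load peptides, had a log2 fold change of -0.49 and -0.62, and Cd74 ran from 18.02 to 222 CPM in IgG and 20.9 to 138 CPM in propafenone tumours.

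**Figure D4:**
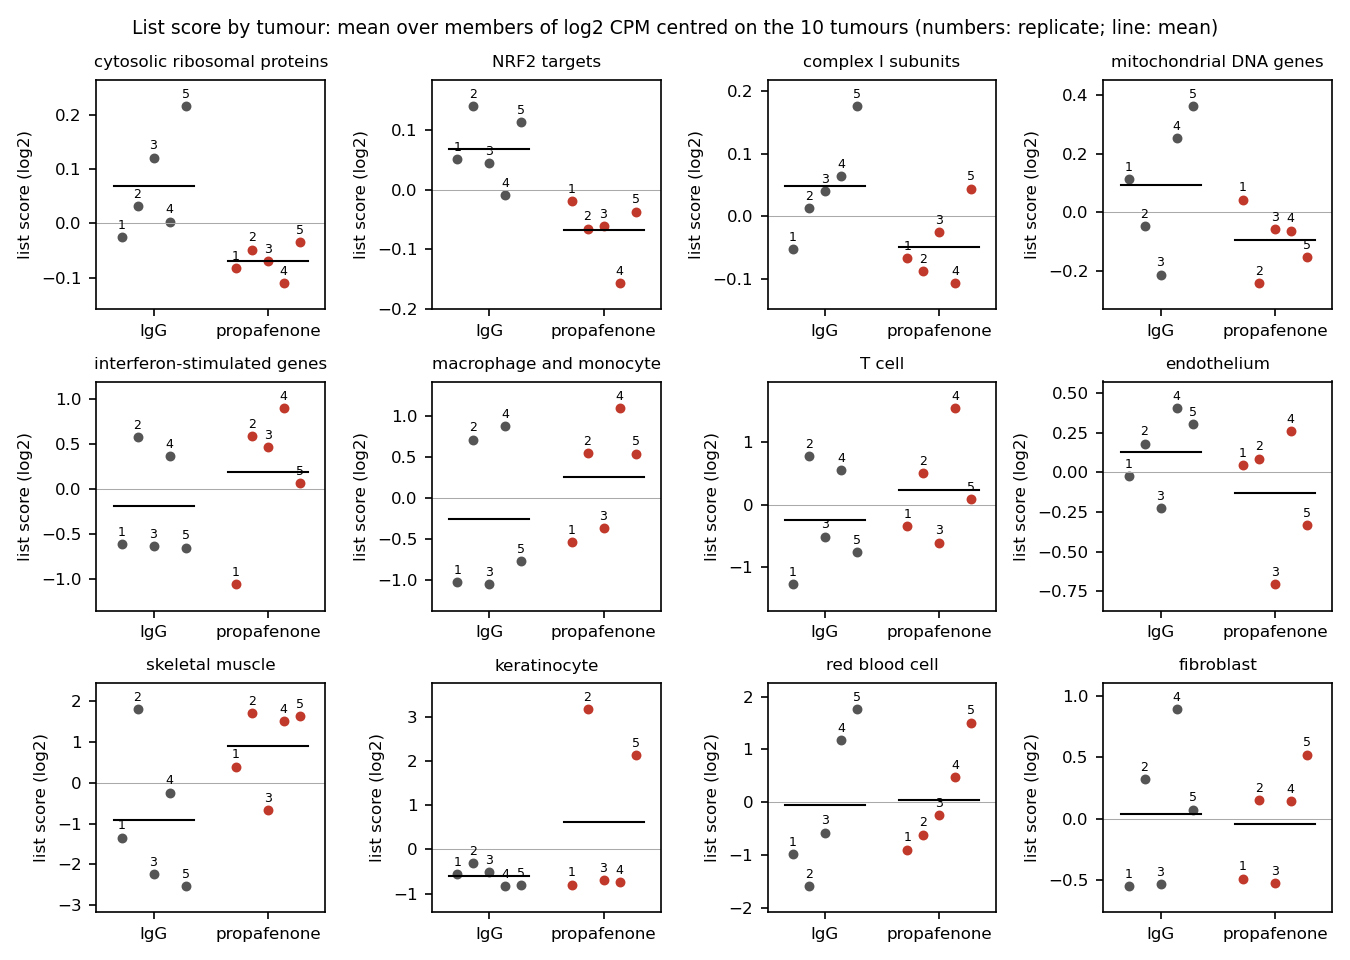
List score of 12 gene lists in each tumour (vertical axes, log2 scale, centred on the 10 tumours), IgG in grey and propafenone in red, numbered by replicate, with a line at each group mean. Ribosomal protein and NRF2 target scores do not overlap between groups; interferon, macrophage and T cell scores split both groups into high and low tumours, and the keratinocyte score is high in propafenone tumours 2 and 5 only.

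Immune cell markers were scarce and varied by tumour. Macrophage and monocyte genes had 18 of 20 higher, with a median log2 fold change of 0.24 (0.098 to 0.64), and the list summed to 919 to 1284 TPM in IgG tumours and 839 to 1325 TPM in propafenone tumours, most of it Apoe (log2 fold change -0.21), which melanoma cells can express as well. Its score was -1.03, 0.71, -1.06, 0.87 and -0.77 in IgG tumours and -0.54, 0.55, -0.37, 1.10 and 0.54 in propafenone tumours. Cx3cr1, a chemokine receptor of monocytes, stayed under 1 CPM in every tumour (log2 fold change 1.08). Dendritic cell genes had 9 of 12 higher, with a median log2 fold change of 0.18 (-0.0018 to 0.43), and with Flt3 at 0 CPM in 3 IgG tumours and 1 propafenone tumour and no tumour above 0.394 CPM, Wdfy4 at 0.266 to 1.87 and 0.604 to 2.55 CPM, and Irf8 highest at 9.20 TPM after IgG. Without propafenone tumour 4 the dendritic median was -0.0018, and without the tumours above 1000 CPM of Hbb-bs it was -0.085. Neutrophil genes had 5 of 6 tested lower, with a median log2 fold change of -0.37 (-0.65 to -0.16), and with S100a9 at 0.0818 to 1.46 CPM and 0 to 0.619 CPM and Mmp9 at 0.398 to 1.15 CPM and 0.325 to 1.29 CPM. Mast cell genes had 4 of 7 higher with Cma1 and Tpsb2 under 1 CPM in every tumour and Kit, which melanocytes also express, highest at 7.41 TPM.

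T cell genes had 17 of 18 higher, with a median log2 fold change of 0.42 (-0.056 to 0.70), and the list summed to 12.9 to 23.3 TPM in IgG tumours and 9.96 to 34.7 TPM in propafenone tumours. Without propafenone tumour 4 the median was -0.056. Cd8a, of killer T cells, measured 0.262, 1.23, 0.531, 0.716 and 0.221 CPM after IgG and 0.382, 0.724, 0.455, 1.27 and 0.619 CPM after propafenone (log2 fold change 0.22, 95% interval -1.38 to 1.82), and the groups overlapped. Cd3g, of the T cell receptor complex, measured 0, 0.484, 0, 0.324 and 0.0553 CPM and 0.270, 0.504, 0.276, 1.88 and 0.407 CPM (log2 fold change 1.93, 95% interval -0.11 to 3.98), with propafenone tumour 4 highest. Foxp3, of regulatory T cells, had a log2 fold change of 0.90 (95% interval -0.14 to 1.94). Lck, the highest per length, was against the rest of the list at -0.37.

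Cytotoxic and NK genes had 11 of 13 tested higher, with a median log2 fold change of 0.55, running over 0.20 to 0.83 without single tumours. Gzmb, the granule protease of killer cells, measured 0.344, 1.65, 0.946, 1.47 and 0.479 CPM and 0.0636, 2.17, 1.43, 4.38 and 1.32 CPM, with propafenone tumour 4 the highest and propafenone tumour 1 the lowest of the 10 (log2 fold change 0.94, 95% interval -0.85 to 2.72). Ifng, the cytokine of activated T cells, stayed under 0.5 CPM in every tumour (log2 fold change -0.19, 95% interval -2.37 to 2.001). Gzma reached at most 0.409 CPM (log2 fold change 2.13) and Il2rb ran from 0.497 to 2.13 CPM and 0.413 to 4.62 CPM (log2 fold change 0.77). Checkpoint genes had 16 of 19 higher, with a median log2 fold change of 0.33 that ran over 0.076 to 0.58 without single tumours. Pdcd1, the receptor PD-1, measured 0.115, 1.13, 0.133, 0.767 and 0.0737 CPM and 0.111, 0.535, 0.569, 1.19 and 0.505 CPM, with IgG tumours 2 and 4 and propafenone tumour 4 highest (log2 fold change 0.39, 95% interval -1.30 to 2.08). Icos stayed under 1 CPM (log2 fold change 2.23), Icosl had a log2 fold change of 0.36 and Lgals9 was the highest at 91.9 TPM. Chemokines had 12 of 20 higher, with a median log2 fold change of 0.13 (-0.11 to 0.41), and with Ccl12, which draws monocytes, at 0.229, 0.452, 0.432, 0.733 and 0.718 CPM and 0.763, 1.15, 0.601, 1.39 and 0.929 CPM (log2 fold change 0.91, 95% interval 0.12 to 1.71), Cxcl5 at 0 CPM in 1 IgG and 3 propafenone tumours, and Cxcl10 highest at 95.8 and 101 TPM. The chemokine median turned to -0.11 without propafenone tumour 4 and to -0.18 with the macrophage score as covariate. B cell genes had 4 of 8 tested higher, with Cd79a at -0.30 and Mzb1 at 0.97.

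Vessel and stroma markers leaned lower. Endothelial genes had 18 of 20 lower (90%, against 49.1%), with a median log2 fold change of -0.31 (-0.41 to -0.17) and 0 without overlap. At an unadjusted p under 0.05 stood 2, both lower, beside 2.92% of all genes lower at that p. Eng, a co-receptor of vessels and the list's highest gene at 194 TPM after IgG, measured 326, 317, 277, 327 and 356 CPM and 294, 281, 254, 318 and 234 CPM (log2 fold change -0.21, 95% interval -0.40 to -0.026). Plvap, of fenestrated vessels, measured 43.3, 35.1, 33.4, 45.8 and 48.3 CPM and 31.3, 34.4, 28.2, 38.6 and 24.5 CPM (log2 fold change -0.39, 95% interval -0.74 to -0.046). Propafenone tumours 3 and 5 were the lowest of the 10 for both genes and for the list score, and without propafenone tumour 3 the median was -0.17.

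Pericyte and smooth muscle genes had 9 of 11 lower, with a median log2 fold change of -0.21 (-0.37 to 0.10). At an unadjusted p under 0.05 stood 3, beside 2.92% of all genes lower at that p. They were Rgs5 (log2 fold change -0.62), the channel subunit Abcc9 (log2 fold change -0.58) and Notch3 (log2 fold change -0.35), singled out after its values were seen. Rgs5 measured 38.1, 24.4, 40.2, 41.96 and 50.5 CPM and 27.5, 38.7, 10.998, 37.8 and 11.8 CPM, lowest in propafenone tumours 3 and 5. Mcam, shared with melanoma cells, was against them at 0.26, and without IgG tumour 5 the median was 0.10. Fibroblast genes had 14 of 17 lower, with a median log2 fold change of -0.23, running over -0.34 to -0.11 without single tumours. Lum, a collagen-binding proteoglycan, ran from 0.830 to 3.04 CPM in IgG and 0.461 to 1.51 CPM in propafenone tumours (log2 fold change -0.64), Pdgfrb had a log2 fold change of -0.23 and Fbln1, the highest per length, of -0.20. Extracellular matrix genes had 28 of 38 lower, with a median log2 fold change of -0.15 (-0.21 to -0.034), and -0.034 without IgG tumour 5. Timp2, an inhibitor of matrix proteases, had a log2 fold change of -0.29 (95% interval -0.51 to -0.070), and Sparc was highest at 557 TPM. With the muscle score as covariate the median was -0.014 for pericyte and smooth muscle genes, -0.067 for fibroblast genes and -0.016 for extracellular matrix genes.

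Tissue that is not tumour differed between single tumours. Skeletal muscle genes had 19 of 19 tested higher, with a median log2 fold change of 0.82 (0.62 to 2.88), and summed to 13.1 to 133 TPM in IgG tumours and 28.96 to 119 TPM in propafenone tumours. Acta1, muscle actin, measured 1.49, 30.7, 0.183, 5.63 and 0.221 CPM after IgG and 6.38, 23.2, 4.48, 26.3 and 16.8 CPM after propafenone. IgG tumour 2 was the highest of the 10 and IgG tumours 3 and 5 were near 0 (log2 fold change 1.01, 95% interval -1.41 to 3.43). Myh4, a fast myosin, had a log2 fold change of 3.12 (95% interval 0.56 to 5.67) and Neb ran from 1.91 to 8.28 CPM and 5.32 to 13.2 CPM. Without IgG tumour 2 the muscle median was 2.88 with 13 of 19 genes at an unadjusted p under 0.05, and without the tumours above 1000 CPM of Hbb-bs it was 0.072. The part of muscle tissue in other lists was not tested beyond the covariate fits given beside them.

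Genes of the upper epidermis were found in propafenone tumours 2 and 5 and were at or near 0 elsewhere. Krt10, a keratin of that layer, measured 0, 0.0645, 0, 0 and 0 CPM after IgG and 0, 6.23, 0, 0 and 2.53 CPM after propafenone. Lor, of the horny layer, measured 0 CPM in all 5 IgG tumours and 0, 0.929, 0, 0 and 0.473 CPM in propafenone tumours. Krt1 and Krt77 were at 0 in all 5 IgG tumours and measured 0, 2.11, 0, 0 and 0.864 CPM and 0, 3.31, 0, 0 and 1.16 CPM after propafenone. They and Pcdhga10, a protocadherin that shares exons with its gene cluster, at 0.965, 0, 0, 1.31 and 0 CPM after IgG and 0 in all 5 propafenone tumours, were the 3 genes that DESeq2 called, and each rested on 2 tumours with a value above 0. Lgals7, the list's highest gene, was at similar CPM in both groups (4.01 to 6.56 and 3.34 to 5.81), and the list summed to 15.7 to 24.7 TPM in IgG tumours and 14.4 to 49.3 TPM in propafenone tumours.

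Red blood cell genes had 9 of 12 lower, with a median log2 fold change of -0.34, which ran over -1.19 to 0.49 without single tumours. The beta globin gene Hbb-bs measured 156, 85.7, 262, 1618 and 3181 CPM in IgG tumours and 246, 259.9, 391, 1015 and 1855 CPM in propafenone tumours, so replicates 4 and 5 of both groups held the most, and globin genes too are close copies of each other. Bpgm, which tunes oxygen release, had a log2 fold change of -0.20, and Ank1 ran from 0.448 to 0.847 CPM and 0.378 to 2.39 CPM. Adipocyte genes had 8 of 10 tested higher, with a median log2 fold change of 0.43 (0.12 to 0.75), against which Fabp4, the list's highest gene, had a log2 fold change of -0.48, and Lep stayed at or under 0.236 CPM. The adipocyte median was lowest without propafenone tumour 2 and turned to -0.67 with the muscle score as covariate. Schwann cell and nerve genes had 6 of 10 tested higher, with a median log2 fold change of 0.041 (-0.11 to 0.13). By log2 fold change the myelin gene Pmp22 stood at -0.44 and Cdh19 at 0.24.

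The same drug was also compared in tumours that all received anti-PD-1, by the combination against anti-PD-1 alone, with 5 tumours in each group and none shared with the comparison above. edgeR called 0 genes there too (smallest adjusted p 0.261), with 1552 at an unadjusted p under 0.05, DESeq2 called 7 and limma on log2(TPM + 1) called 2. Over all genes 47.9% had a log2 fold change above 0 and 52.1% below. Of 15875 genes 59.7% had the same sign in both comparisons, and across genes Pearson's r was 0.17 and Spearman's rho 0.21, where genes are not independent replicates. The interaction, a test of whether the propafenone difference itself differed with the antibody, called 0 genes by edgeR (smallest adjusted p 0.99, 482 at an unadjusted p under 0.05) and 2 by DESeq2.

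The ribosomal, NRF2 and mitochondrial lists lay below 0 with the antibody too. List medians of this comparison were not worked out without single tumours, so 1 tumour may weigh on them. By edgeR the genes at an unadjusted p under 0.05 numbered 985 without anti-PD-1 tumour 3 and 2175 without anti-PD-1 tumour 4. Ribosomal proteins were lower in 45 of 47, with a median log2 fold change of -0.17, NRF2 targets in 19 of 24, with a median log2 fold change of -0.13, and mitochondrial DNA genes in 13 of 13, with a median log2 fold change of -0.24. Complex I genes were lower in 36 of 36, with a median log2 fold change of -0.21, and Ndufs1 was among them at -0.072. Complexes II to V were lower in 37 of 37, with a median log2 fold change of -0.22, mitochondrial dynamics in 21 of 21, with a median log2 fold change of -0.14, and JNK and AP-1 genes in 22 of 27, with a median log2 fold change of -0.22. Cell cycle genes were higher in 33 of 35, with a median log2 fold change of 0.095. With the antibody the log2 fold change of Atf5 was -0.40, with Slc7a11 at -0.62, Hmox1 at -0.37, Gpx4 at -0.33 and Ppargc1a at -0.030. Arhgef37, Deptor and Serpine2 had log2 fold changes near 0 with the antibody, at 0.038, 0.023 and -0.022. Their interaction, the log2 fold change with the antibody minus that without, was -0.51, -0.55 and 0.86, each with an edgeR adjusted p of 0.99. The shortest length class of genes had a median of -0.073 in this comparison and the longest 0.021. The 689 genes both short and in the highest TPM class, without the ribosomal list, had a median of -0.13.

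Medians of the immune lists were above 0 with the antibody. Interferon-stimulated genes were higher in 28 of 28, with a median log2 fold change of 0.72, interferon gamma genes in 21 of 21, with a median log2 fold change of 1.46, MHC class I in 18 of 18, with a median log2 fold change of 0.59, and MHC class II in 11 of 11, with a median log2 fold change of 0.71. Macrophage genes were higher in 19 of 20, with a median log2 fold change of 0.82, muscle genes in 19 of 19, with a median log2 fold change of 1.03, and fibroblast genes in 15 of 17, with a median log2 fold change of 0.33. Endothelial genes were higher in 10 and lower in 10 of 20, and red blood cell genes lower in 11 of 12, with a median log2 fold change of -1.97. The globin gene Hbb-bs measured 1526 CPM in anti-PD-1 tumour 2 and 108 to 258 CPM in the other anti-PD-1 tumours. In combination tumours it measured 57.9 to 151 CPM. The part of that single tumour in the red blood cell median was not tested. Single values with the antibody were 0.86 for Cd274, 1.44 for Cd8a, 1.04 for Gzmb and 1.78 for Gbp7. By edgeR no listed gene passed the interaction test, while the 2 genes that DESeq2 called were Krt1, of the keratinocyte list, and Pcdhga10. The difference of a whole list between the antibody backgrounds was not tested.

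**Figure D5:**
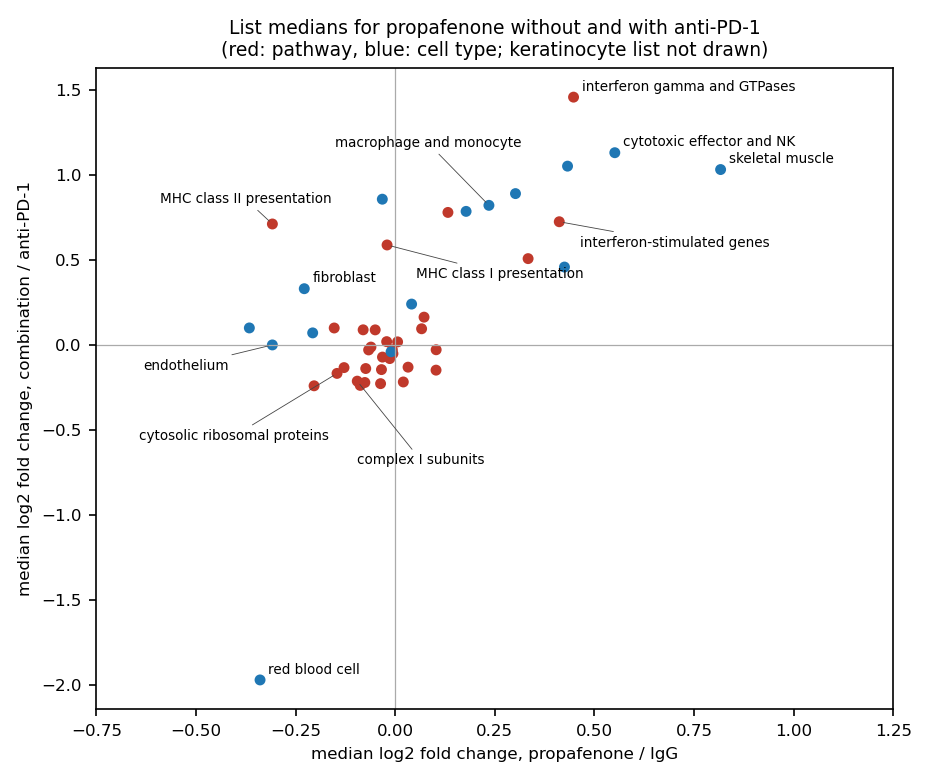
Median log2 fold change of 47 gene lists for propafenone over IgG (horizontal axis) and for the combination over anti-PD-1 (vertical axis), red for pathways and blue for cell types; the keratinocyte list is not drawn. Ribosomal protein and complex I medians lie below 0 on both axes, interferon, cytotoxic and muscle medians above 0 on both, and MHC class II and fibroblast medians lie on opposite sides.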

How the data were processed

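The authors deposited expected counts per gene, whole numbers in these files, and TPM values per gene for the same 20 libraries. Per the labels, RNA came from whole tumours and libraries from a SMARTER mRNA kit. Builds GRCm38 and mm10, the aligner HISAT2 2.2.1, SAMtools 1.9 and FastQC come from the submitters' processing notes; the counting tool, its annotation and the use of strand are not given in the sources used here, so overlapping and antisense genes cannot be told apart.

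From the counts, edgeR 4.0.16 (TMM scaling, its filter on low counts over 4 groups, robust quasi-likelihood fit of all 20 libraries, 16 residual degrees of freedom, no covariate, R 4.3.3) tested each contrast with Benjamini-Hochberg adjustment at 0.05; 15875 of 32285 genes entered, with 99.98% of counts. Standard errors are the log2 fold change over the root of the F statistic, and intervals are at 95%. Alternatives were DESeq2 1.42.0, limma 3.58.1 (voom, and trend on log2(TPM + 1) and log2(TPM + 0.1)), other scalings and filters, only the 10 libraries, counts divided by 4, covariates, the replicate number as a block, and fits without single libraries or those above 1000 CPM of Hbb-bs. On simulated counts for the propafenone against IgG comparison over 15875 genes, 45% of 100 genes changed 1.5-fold and 71% of 100 changed 2-fold were recovered. Among the unchanged genes 7 were called. Each gene was drawn independently, so variation between tumours that many genes share was not simulated, and recovery in the real tumours may differ.

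Genes were named by rule: up to 10 in each direction by p with a mean of at least 1 CPM and the same direction in all 10 fits without 1 tumour; up to 5 in each direction by fold among those without overlap; a panel of 20, some of which are not reported here; for each list the 2 smallest p and the highest TPM; and genes called by any test where 5 or fewer were. Members, the 48 gene lists and the panel were chosen with earlier results of these data known. Gene positions were matched by ID (32235 of 32285) to GENCODE M21, and start and promoter sequences by symbol to RefSeq on GRCm38.p6. Replicate numbers in the labels are not said to pair tumours.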

Additional observations from a re-analysis of the deposited data

Results flagged for a closer look

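In 9 of 186 groups of 5 tumours checked, one tumour stood apart, with its gap to the nearest other tumour divided by the whole range above 0.71. Chance alone gives about 1 in 20 groups, so this number of groups is close to what chance gives. Among the IgG tumours the highest one stood apart for Ulbp1 (0.79), an NKG2D ligand, for Trp53i11 (0.733) and for C1qtnf5 (0.821), all on log2 CPM, and for the adipocyte list score (0.847). The lowest IgG tumour stood apart for Mitf (0.722), Mki67 (0.739) and the fatty acid synthesis list score (0.835). Among the propafenone tumours the highest stood apart for Serpine2 (0.772) and the lowest for Acsl4 (0.743). IgG tumour 5 was the one for Trp53i11 and Mki67, IgG tumour 2 for Mitf and propafenone tumour 4 for Acsl4.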

How the results depend on the processing

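For propafenone against IgG the count of called genes was 0 under edgeR with every scaling, filter, covariate and left-out library tried and under limma, and 3 with DESeq2. For the combination against anti-PD-1 it was 2 with limma on log2(TPM + 1), 7 with DESeq2 and 0 otherwise, and for the interaction 2 with DESeq2 and 0 otherwise; the cause was not tested. With the replicate number as a block edgeR called 0 genes, and 603 of 15875 stood at an unadjusted p under 0.05 against 754 without it; same-numbered tumours of the groups had correlated deviations of 0.24, 0.07, 0.24, 0.37 and -0.13, of which 3 of 5 were above 0.1, and 6 of 10 tumours correlated best with their own number in the other group; whether the numbers pair the tumours is not established. With the muscle score as covariate 336 genes stood at that p, with the red blood cell score 1169, and without the tumours above 1000 CPM of Hbb-bs 476.

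The direction was the same under all alternatives for 140 of 150 named genes with a fold change, and the other 10 turned under at least 1. Many of these genes were named for a small p, for groups without overlap, or for a direction kept in all 10 fits without 1 tumour. The count therefore does not measure how stable the direction of genes is in general. Under the block Atf3 was -0.081 and Ifng 0.048 on the log2 scale; under voom they were -0.055 and 0.56; on log2(TPM + 0.1) Ifng was 0.11. With the muscle score Atf3 was -0.010, Cd8a -0.29 and Mitf -0.0048; with the macrophage score Cd8a was -0.33, Gzmb -0.062 and Gbp7 -0.078. Without the tumours above 1000 CPM of Hbb-bs Atf3 was -0.033, Cd8a -0.37 and Pdcd1 -0.18. Without single tumours the log2 fold change ran over -0.16 to 0.19 for Jun, -0.29 to 0.30 for Atf3, -0.13 to 0.32 for Kcnh2, -0.12 to 0.67 for Cd8a, -0.62 to 0.76 for Ifng, -0.044 to 1.09 for Pdcd1, -0.093 to 0.21 for Mitf and -1.17 to 0.068 for Psmb8.

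Depth limits which genes can be tested: with counts divided by 4, 13566 in place of 15875 passed the filter and 628 stood at an unadjusted p under 0.05. The 95% intervals of Cd8a, Ifng and Pdcd1, whose group means lie under 1 CPM, pass 2-fold in both directions; the part of depth in them was not tested. With 5 tumours a group, fewer than all of the simulated 1.5-fold and 2-fold changes were recovered, so a p that misses the threshold does not show that a gene did not differ.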
